A study of Mus musculus with 9 samples.

Results

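The 8 plasma cell programme genes Jchain, Mzb1, Derl3, Xbp1, Irf4, Prdm1, Sdc1 and Tnfrsf17 were followed across 9 mouse spleen RNA-seq libraries. They were chosen by symbol as genes that mark antibody-secreting cells, with earlier results of these data known. All 8 were found among the 21965 genes counted. Enough reads for a test were present for 7 of them, and Tnfrsf17 was below the filter on low counts.

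The tested animals were females of the lupus-prone NZB x NZW F1 cross (BWF1). They were set against BWF1 males and against females of the inbred strain BALB/c, both named as not prone to lupus. Each group had 3 libraries, and all mice were 16 weeks old and carried no stated treatment or transgene. BALB/c is neither parent of the cross, and BWF1 males differ from BALB/c females in both strain and sex, whose parts in that comparison cannot be told apart. The labels do not say whether a library pooled animals, so p-values measure the spread between libraries, which may be partly technical.

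A plasma cell is the end stage of the B cell lineage. The transcription factors IRF4 and Blimp-1 (encoded by Prdm1) switch off the B cell programme, and XBP1, a factor of the unfolded protein response, enlarges the endoplasmic reticulum (ER) so that antibody can be folded and secreted. In the spleen these cells sit mainly in the red pulp and at its borders with the white pulp, and in BWF1 mice they are known as a source of autoantibodies. The immunoglobulin constant region genes Ighm, Ighg1, Ighg2b, Ighg2c, Igha, Igkc and Iglc1 were not among the genes counted and could not be analysed here.

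The sources disagree on the cells. The series describes whole splenocytes, whereas its sample labels and protocol name sorted macrophages (CD11b+F4/80+). The CD11b gene Itgam had 0 counts in 2 libraries and averaged 0.538 CPM in BWF1 females and 4.87 CPM in BWF1 males, against 5.52 CPM in BALB/c females. The F4/80 gene Adgre1 had counts in every library and went the other way. It averaged 14.8 CPM in BWF1 females and 15.3 CPM in BWF1 males, against 7.27 CPM in BALB/c females. The 10 B cell markers summed to 1990 to 3004 CPM in every library, far above the 10 macrophage markers at 215 to 686 CPM. The values below are therefore given as those of mixed spleen cells. Depth was low, with 458608 to 673160 gene counts in BWF1 females, 970263 to 4305003 in BWF1 males and 879890 to 1310639 in BALB/c females. Lars2 alone took 42.3% to 76.6% of them, most in BWF1 male 1, which also had the lowest scaling factor (0.530).

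The genes lie on 7 chromosomes of mm10. Jchain is on chromosome 5 (88519809 to 88527891, minus strand), Mzb1 on 18 (35647267 to 35649367, minus), Derl3 on 10 (75893413 to 75895941, plus) and Xbp1 on 11 (5520659 to 5525893, plus). Irf4 is on chromosome 13 (30749226 to 30766976, plus), Prdm1 on 10 (44437177 to 44528501, minus), Sdc1 on 12 (8771323 to 8793715, plus) and Tnfrsf17 on 16 (11313812 to 11320074, plus). Mzb1 shares 695 exon bases with SPATA24 on the same strand, and reads from the pair cannot be told apart. The other 7 overlap no annotated gene.

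XBP1 is known to act through short elements in the promoters of secretory genes. The promoters of Jchain, Derl3 and Xbp1 are shown, for the antibody chain, the ER machinery and the factor itself. Each is the 250 bases before the RefSeq gene start on GRCm38.p6, at chr5:88527898-88528147 (minus strand) for Jchain, chr10:75893148-75893397 (plus) for Derl3 and chr11:5520391-5520640 (plus) for Xbp1. Capitals mark the unfolded protein response core ACGTG and the CCAAT box on either strand.
Jchain: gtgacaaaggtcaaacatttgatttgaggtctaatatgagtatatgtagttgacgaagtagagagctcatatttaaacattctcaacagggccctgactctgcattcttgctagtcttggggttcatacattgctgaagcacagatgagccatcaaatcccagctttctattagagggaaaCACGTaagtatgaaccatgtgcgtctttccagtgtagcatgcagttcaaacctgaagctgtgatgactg
Derl3: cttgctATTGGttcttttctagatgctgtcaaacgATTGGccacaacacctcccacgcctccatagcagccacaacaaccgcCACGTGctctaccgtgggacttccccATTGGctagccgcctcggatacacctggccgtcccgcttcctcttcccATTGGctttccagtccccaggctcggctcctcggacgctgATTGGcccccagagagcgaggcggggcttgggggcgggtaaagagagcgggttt
Xbp1: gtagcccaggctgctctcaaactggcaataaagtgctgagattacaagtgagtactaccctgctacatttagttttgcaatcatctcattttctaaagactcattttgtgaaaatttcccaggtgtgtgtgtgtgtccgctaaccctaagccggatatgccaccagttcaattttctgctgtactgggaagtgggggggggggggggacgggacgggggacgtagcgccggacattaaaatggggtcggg
The Jchain window holds ACGTG once, on the reverse strand 69 to 65 bases before the start. The Derl3 window holds it on both strands, overlapping as CACGTG between 168 and 163 bases before the start, and holds CCAAT 5 times on the reverse strand. The Xbp1 window holds neither. The promoter of Mzb1 was left out of these counts. Of the other 7 members, 2 hold ACGTG (Jchain and Derl3), against 16.6% of 32851 mouse promoter windows of this length. CCAAT is held by 3 of 7 (Derl3, Prdm1 and Sdc1), against 33.8% of the windows. The half-site CCACG of the ER stress element is held by 4 of 7 (Derl3, Irf4, Prdm1 and Sdc1), against 28.3%. In Derl3 it lies on the forward strand 198 to 194 and 169 to 165 bases before the start, where the second overlaps CACGTG. On the reverse strand of Derl3 it lies at 156 to 152, beside a reverse-strand CCAAT at 142 to 138. These matches describe letters in a window and show no binding.

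Levels are given as TMM-scaled CPM, that is counts brought to a common library total after correction for composition, and between genes as CPM per kilobase of exon. On the scale per kilobase Jchain was the highest member in each group, at 156 in BWF1 females and 492 in BWF1 males, against 199 in BALB/c females. Mzb1 followed at 94.6 in BWF1 females and 103 in BWF1 males, against 59.4 in BALB/c females. Xbp1 (26.8 in BWF1 females, 32.6 in BWF1 males, 17.0 in BALB/c females) and Irf4 (20.7 in BWF1 females, 19.4 in BWF1 males, 23.7 in BALB/c females) lay next, and their order changed between groups. Sdc1 and Derl3 lay lower, at 3.13 to 10.3 over the group means, and Prdm1 at 1.58 to 2.81. Tnfrsf17 averaged 0.902 in BWF1 females and 3.71 in BWF1 males, against 0.832 in BALB/c females, from group totals of 1, 11 and 3 reads.

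**Figure D1:**
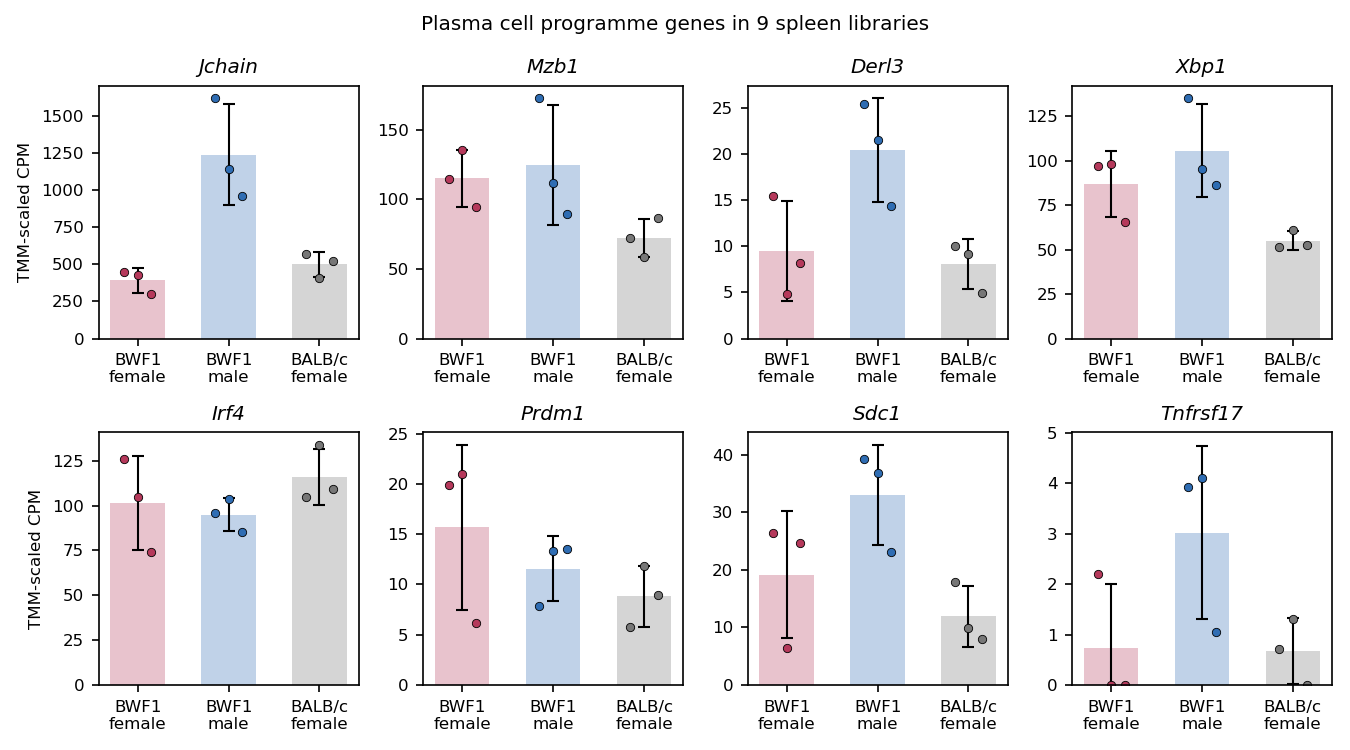
TMM-scaled CPM (y axis, a scale of its own for each gene) of the 8 members in the 9 libraries, BWF1 females at the left of each panel, BWF1 males in the middle and BALB/c females at the right. Points are libraries, bars are group means and error bars are SD over 3 libraries, shown only above 0. All 3 BWF1 males lie above the other 6 libraries for Jchain, whereas both BWF1 groups lie above BALB/c females for Xbp1 and Mzb1.

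The first comparison, BWF1 females against BWF1 males, sets the lupus-prone sex of the cross against the other. Of the 7 tested members, 1 was called (Jchain, lower in females) at an adjusted p under 0.05, where 2.19% of all 7719 tested genes were called in either direction and 1.23% were called lower. Over all genes 74 were higher and 95 lower in females, or 45 and 14 with library sizes in place of TMM factors. The median log2 difference of the 7 was -0.26, against 0.000638 over all tested genes.

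Jchain encodes the joining chain that links IgM and IgA into polymers. It measured 448, 431 and 298 CPM in BWF1 females, against 1620.1, 1139 and 958 CPM in BWF1 males (203, 267 and 145 counts in females, 826, 1111 and 4599 in males). Every female library lay below every male library, as in 9.68% of all genes. The means were 392 ± 82.1 CPM in BWF1 females and 1239 ± 342 CPM in BWF1 males (SD, n = 3 each). Jchain fell by 1.66 on the log2 scale in females (SE 0.189, 95% interval -2.05 to -1.27), and by edgeR's quasi-likelihood test the adjusted p was 9.04e-06, with the third lowest p of all genes. In these bulk libraries fewer plasma cells and less Jchain RNA per cell cannot be told apart. The log2 difference was -1.40 between the single libraries with the file name tag ORIG and -1.79 between the pairs with the tag RL.

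The other 6 tested members did not pass the test between BWF1 females and males. Mzb1 encodes an ER co-chaperone that aids antibody assembly, and it measured 115, 136 and 94.4 CPM in BWF1 females, against 173, 112 and 89.3 CPM in BWF1 males. The groups overlapped, with a log2 difference of -0.09 (95% interval -0.53 to 0.34, edgeR adjusted p 0.877), an interval that does not reach the Jchain difference. Xbp1 measured 97.0, 98.4 and 65.7 CPM in BWF1 females, against 135, 95.4 and 86.6 CPM in BWF1 males. These groups also overlapped, at a log2 difference of -0.26 (95% interval -0.68 to 0.15, edgeR adjusted p 0.558).

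Derl3 encodes Derlin-3, a membrane protein of the pathway that removes misfolded proteins from the ER. It measured 15.4, 4.84 and 8.21 CPM in BWF1 females, against 25.5, 21.5 and 14.4 CPM in BWF1 males, from only 3 to 7 reads per female library. BWF1 female 1 stood among the males and the other female libraries below them, at a log2 difference of -1.08 (95% interval -1.97 to -0.18, edgeR adjusted p 0.199). Sdc1 encodes syndecan-1 (CD138), the surface proteoglycan used to sort plasma cells, and measured 26.5, 6.45 and 24.6 CPM in BWF1 females, against 39.2, 36.9 and 23.1 CPM in BWF1 males. BWF1 female 2 stood far below the other libraries, on 4 reads, and the log2 difference was -0.78 (95% interval -1.58 to 0.02, edgeR adjusted p 0.318).

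Irf4 is also expressed by activated B and T cells and by some myeloid cells. It measured 126, 105 and 73.9 CPM in BWF1 females, against 96.1, 104 and 85.2 CPM in BWF1 males, groups that overlapped fully (log2 difference 0.10, 95% interval -0.29 to 0.49, edgeR adjusted p 0.852). Prdm1 is likewise expressed by effector T cells, natural killer cells and some macrophages. It measured 19.8, 21.0 and 6.16 CPM in BWF1 females, against 7.85, 13.3 and 13.5 CPM in BWF1 males. Female 3 was the lowest library and the other females the highest, at a log2 difference of 0.37 (95% interval -0.49 to 1.23, edgeR adjusted p 0.717). Tnfrsf17 encodes BCMA, a receptor for the survival factors BAFF and APRIL, and had 1, 0 and 0 counts in BWF1 females, against 2, 4 and 5 counts in BWF1 males and 1, 2 and 0 in BALB/c females. A count of 0 allows a level of up to 4.84 CPM in BWF1 female 2, 6.16 CPM in BWF1 female 3 and 2.97 CPM in BALB/c female 3 (3 counts, counting error only), so a difference in Tnfrsf17 was not detectable at this depth.

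**Figure D2:**
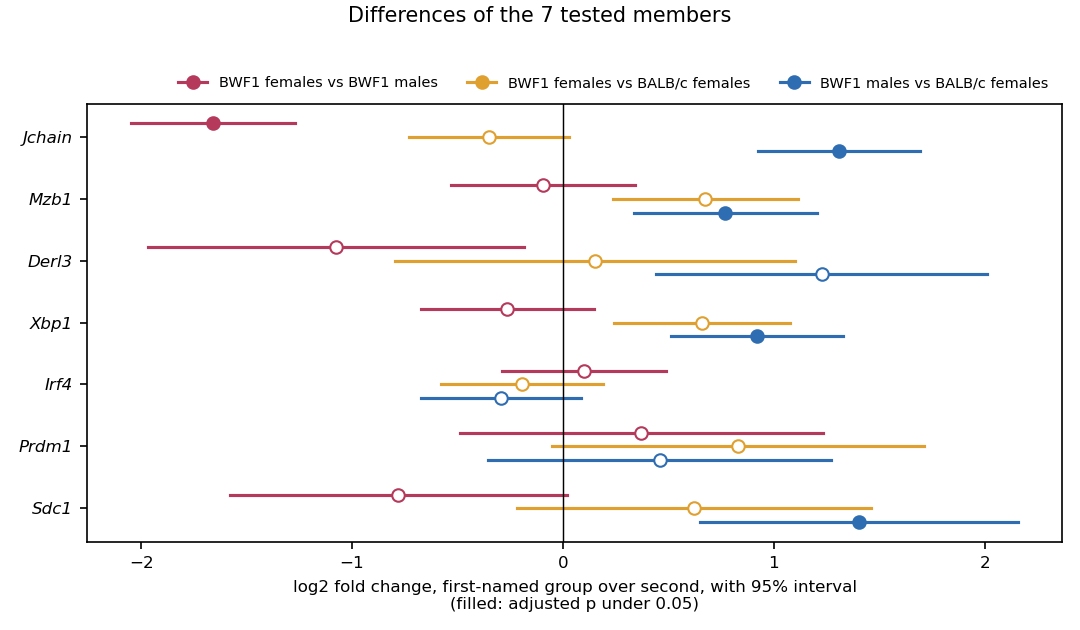
Log2 differences (x axis) of the 7 tested members in the 3 comparisons, with 95% intervals from the edgeR fit. Filled points passed an adjusted p under 0.05. Jchain lies at -1.66 between BWF1 females and males, whereas the intervals of Mzb1, Xbp1 and Irf4 in that comparison include 0.

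Markers of other cells moved with the Jchain difference between BWF1 females and males. The 5 natural killer markers summed to 54.9 to 65.7 CPM in BWF1 females, against 231 to 237 CPM in BWF1 males, and 4 of 5 were called lower in females. The macrophage markers summed to 215 to 232 CPM in BWF1 females, against 449 to 686 CPM in BWF1 males, with 5 of 9 tested called lower in females. The 7 T cell markers summed to 246 to 342 CPM in BWF1 females, against 475 to 525 CPM in BWF1 males, with 5 of 7 called lower. DESeq2 called 1 natural killer, 3 macrophage and 2 T cell markers lower, library sizes in place of TMM factors left 2, 3 and 2, and limma-voom called 3, 5 and 5. The 10 B cell markers summed to 1990 to 2222 CPM in BWF1 females, against 2248 to 2654 CPM in BWF1 males, with 0 called by edgeR (3 at an unadjusted p under 0.05, 1 called by DESeq2 and 1 by limma-voom). Of 5 tested markers of dividing cells, 3 were called higher in females (2 by DESeq2). All 5 tested erythroid markers had positive differences (median log2 difference 2.21), with 4 at an unadjusted p under 0.05 and 1 called higher in females (0 by DESeq2, 2 by limma-voom, 3 with library sizes in place of TMM factors). The 6 erythroid markers counted summed to 113 to 678 CPM in BWF1 females, against 26.7 to 196 CPM in BWF1 males, and overlapped. None of these markers was at 0 in all libraries, and their part in the Jchain result was not tested.

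Plasmacytoid dendritic cells share part of the secretory programme, and their 8 markers summed to 83.8 to 106 CPM in BWF1 females, 111 to 125 CPM in BWF1 males, and to 89.8 to 117 CPM in BALB/c females. Of the 5 tested, 0 were called by edgeR in any comparison (0, 1 and 2 at an unadjusted p under 0.05 in the 3 comparisons). DESeq2 also called 0, and limma-voom called 1 between BWF1 males and BALB/c females. Of the 8 markers, 5 had counts in every library, among them Siglech with 199 reads in total. Ptcra had 1 read in all 9 libraries. For the 3 tested markers of conventional dendritic cells, edgeR, DESeq2 and limma-voom called 0 in each comparison, and 0 had an unadjusted p under 0.05.

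The second comparison, BWF1 females against BALB/c females, sets the lupus-prone strain against a strain that is not prone within 1 sex. Of the 7 tested members, edgeR, DESeq2 and limma-voom called 0, against 3.82% of all tested genes by edgeR. At an unadjusted edgeR p under 0.05 stood 2 of the 7, a loose limit, since Prdm1 at 0.0643 ranked 1499 of 7719 genes. Over all genes 138 were higher and 157 lower, or 23 and 107 with library sizes in place of TMM factors. In 2 of the 7 (Xbp1 and Mzb1) all BWF1 females lay above all BALB/c females, against 10.3% of all genes. The median log2 difference of the 7 was 0.62, against -0.00236 over all tested genes.

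Xbp1 measured 97.0, 98.4 and 65.7 CPM in BWF1 females, against 51.7, 61.1 and 52.5 CPM in BALB/c females. The lowest BWF1 female lay just above the highest BALB/c female, and the log2 difference was 0.66 (SE 0.202, 95% interval 0.24 to 1.07, edgeR adjusted p 0.0696). Mzb1 measured 115, 136 and 94.4 CPM in BWF1 females, against 71.9, 58.5 and 86.2 CPM in BALB/c females. These groups did not overlap either, at a log2 difference of 0.68 (SE 0.214, 95% interval 0.24 to 1.12, edgeR adjusted p 0.0790). Both passed when BWF1 female 3 was left out (edgeR adjusted p 0.0171 for Xbp1 and 0.0386 for Mzb1) and when BWF1 male 1 was left out of the shared fit (0.0355 for Xbp1 and 0.0264 for Mzb1). Mzb1 also passed with only the 2 groups compared (edgeR adjusted p 0.0398) and with no filter on low counts (0.0385).

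Jchain lay on the other side of 0, at 448, 431 and 298 CPM in BWF1 females, against 572, 405 and 521 CPM in BALB/c females. The groups overlapped, since BALB/c female 2 lay below BWF1 females 1 and 2. The log2 difference was -0.35 (95% interval -0.73 to 0.03, edgeR adjusted p 0.345). Sdc1 (19.2 ± 11.1 CPM in BWF1 females and 11.9 ± 5.33 CPM in BALB/c females, edgeR adjusted p 0.468), Derl3 (9.50 ± 5.41 CPM in BWF1 females and 8.07 ± 2.73 CPM in BALB/c females, adjusted p 0.912) and Prdm1 (15.7 ± 8.25 CPM in BWF1 females and 8.83 ± 3.04 CPM in BALB/c females, adjusted p 0.331) overlapped between the groups. Irf4 averaged 101.5 ± 26.1 CPM in BWF1 females and 116 ± 15.8 CPM in BALB/c females (SD, n = 3 each, edgeR adjusted p 0.657) and overlapped too. Only BWF1 female 2 shares the file name tag ORIG with the BALB/c libraries. Its log2 differences from them were 0.84 for Xbp1, 0.91 for Mzb1 and 1.25 for Prdm1. They were -0.21 for Jchain, -0.15 for Irf4, -0.89 for Sdc1 and -0.74 for Derl3. In that female library Sdc1 had 4 reads and Derl3 3.

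The B cell markers were lower in BWF1 females, with 4 of 10 called lower (1 with library sizes in place of TMM factors) and a summed level of 1990 to 2222 CPM, against 2960 to 3004 CPM in BALB/c females. The marker with the lowest p was Fcer2a, the low affinity IgE receptor CD23, at 77.1 CPM in BWF1 females and 298 CPM in BALB/c females. Called lower were also 2 of 7 T cell, 1 of 5 natural killer, 1 of 9 macrophage and 1 of 5 erythroid markers, and 0 of 5 dividing cell markers were called by edgeR (2 at an unadjusted p under 0.05, 0 by DESeq2 and 0 by limma-voom). Their part in the members' levels was not tested.

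The third comparison, BWF1 males against BALB/c females, had the most members called. Of the 7 tested, 4 were called and all 4 were higher in BWF1 males (Jchain, Xbp1, Sdc1 and Mzb1), where 3.52% of all tested genes were called in either direction and 1.67% were called higher. Over all genes 129 were higher and 143 lower, or 26 and 248 with library sizes in place of TMM factors. In 5 of the 7, all BWF1 males lay above all BALB/c females, against 11.6% of all genes. The median log2 difference of the 7 was 0.92, against -0.00283 over all tested genes.

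Jchain measured 1620.1, 1139 and 958 CPM in BWF1 males, against 572, 405 and 521 CPM in BALB/c females. Every male library lay above every BALB/c library, and BWF1 male 1 was the highest of all 9. Jchain was 2.48-fold higher (log2 difference 1.31, SE 0.186, 95% interval 0.93 to 1.69, edgeR adjusted p 5.72e-05). Without BWF1 male 1 the log2 difference was 1.06 and Jchain was still called.

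Xbp1 measured 135, 95.4 and 86.6 CPM in BWF1 males, against 51.7, 61.1 and 52.5 CPM in BALB/c females, with no overlap. It was 1.89-fold higher (log2 difference 0.92, SE 0.198, edgeR adjusted p 0.00624). Sdc1 measured 39.2, 36.9 and 23.1 CPM in BWF1 males, against 18.0, 9.86 and 7.93 CPM in BALB/c females, also with no overlap, and was 2.64-fold higher (log2 difference 1.40, SE 0.366, edgeR adjusted p 0.0284). It rests on 8 to 25 reads per BALB/c library.

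Mzb1 measured 173, 112 and 89.3 CPM in BWF1 males, against 71.9, 58.5 and 86.2 CPM in BALB/c females. BWF1 male 3 lay just above BALB/c female 3, and Mzb1 was 1.71-fold higher (log2 difference 0.77, SE 0.211, edgeR adjusted p 0.0390). Derl3 measured 25.5, 21.5 and 14.4 CPM in BWF1 males, against 10.1, 9.20 and 4.96 CPM in BALB/c females. The groups did not overlap and the log2 difference was 1.23 (SE 0.381, edgeR adjusted p 0.0739, or 0.0483 with a replicate block, 0.0361 with only the 2 groups compared and 0.0256 with no filter on low counts).

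The calls of Sdc1 and Mzb1 depended on single libraries and on the model. Without BWF1 male 1, BWF1 male 2, BALB/c female 2 or BALB/c female 3, Sdc1 had edgeR adjusted p values of 0.0532, 0.107, 0.140 and 0.130. Without BWF1 male 1, BWF1 male 2, BALB/c female 1 or BALB/c female 2, Mzb1 had edgeR adjusted p values of 0.218, 0.0552, 0.111 and 0.216, and its log2 difference without BWF1 male 1 was 0.46. The adjusted p of Mzb1 was 0.0605 in edgeR with a replicate block and 0.0696 by DESeq2, which called the other 3. With the file name tag as a covariate the edgeR adjusted p was 0.223 for Sdc1 and 0.107 for Mzb1, and only Jchain and Xbp1 were called. With library sizes in place of TMM factors 0 of the 7 members were called by edgeR, and the median of all genes then moved to -0.44 on the log2 scale. On that scale Jchain stood at 0.75, Sdc1 at 0.91, Xbp1 at 0.36 and Mzb1 at 0.20, all above the median. Between BWF1 male 2 and the BALB/c libraries, which share the file name tag ORIG, the log2 differences were 1.19 for Jchain, 1.63 for Sdc1, 0.79 for Xbp1 and 0.63 for Mzb1.

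The transcription factors other than Xbp1 were not called. Irf4 measured 96.1, 104 and 85.2 CPM in BWF1 males, against 105, 134 and 109 CPM in BALB/c females. Every male library lay just below every BALB/c library, as in 11.9% of all genes, at a log2 difference of -0.29 (95% interval -0.67 to 0.08, edgeR adjusted p 0.460). Prdm1 overlapped between the groups, at 11.6 ± 3.23 CPM in BWF1 males, against 8.83 ± 3.04 CPM in BALB/c females (SD, n = 3 each, edgeR adjusted p 0.628).

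Among other cells' markers, 4 of 5 natural killer, 5 of 9 macrophage and 1 of 7 T cell markers were called higher in BWF1 males than in BALB/c females. The natural killer sum was 231 to 237 CPM in BWF1 males, against 91.3 to 123 CPM in BALB/c females, and the macrophage sum 449 to 686 CPM, against 326 to 399 CPM. With library sizes in place of TMM factors 1 natural killer, 0 macrophage and 0 T cell markers were called by edgeR. Called lower were 5 of 5 tested erythroid markers, 1 of 5 dividing cell markers and 1 of 10 B cell markers (Fcer2a), or 2, 0 and 2 by DESeq2. The B cell sum was 2248 to 2654 CPM in BWF1 males, against 2960 to 3004 CPM in BALB/c females. The part of these shifts in the members' calls was not tested.

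Jchain was next compared with Xbp1, Mzb1 and Irf4 within each library, since such a ratio of counts does not depend on scaling factors. Ratios of Jchain to Derl3, Sdc1, Prdm1 and Tnfrsf17 were not formed, so the pattern below covers only the denominators named. The ratios used were chosen after the levels had been seen, except the ratio to B cell markers. Jchain had 4.61, 4.38 and 4.53 counts per Xbp1 count in BWF1 females, against 11.97, 11.9 and 11.1 in BWF1 males and 11.1, 6.63 and 9.92 in BALB/c females. The 3 BWF1 females were close to each other and lay below all other libraries, with means of 4.51 ± 0.120 in BWF1 females and 11.7 ± 0.522 in BWF1 males, against 9.20 ± 2.30 in BALB/c females (SD, n = 3 each). BWF1 males and BALB/c females overlapped.

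Jchain per Mzb1 count gave 3.90, 3.18 and 3.15 in BWF1 females, against 9.39, 10.2 and 10.7 in BWF1 males and 7.96, 6.93 and 6.05 in BALB/c females. The 3 groups did not overlap, and BWF1 females were lowest. By exact two-sided permutation tests, p was 0.1 for BWF1 females against each other group with Xbp1 or Mzb1 as denominator, the smallest that 3 against 3 allows, and 0.133 after Benjamini-Hochberg adjustment over 12 such tests. Between BWF1 males and BALB/c females the exact p was 0.2 per Xbp1 count (0.24 adjusted) and 0.1 per Mzb1 count (0.133 adjusted). Per Irf4 count, Jchain stood at 3.90 ± 0.295 in BWF1 females and 13.0 ± 3.31 in BWF1 males, against 4.42 ± 1.25 in BALB/c females, where only BWF1 males stood apart (exact p 0.1 for males against either group, 0.133 adjusted, and 0.5 for BWF1 females against BALB/c females).

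**Figure D3:**
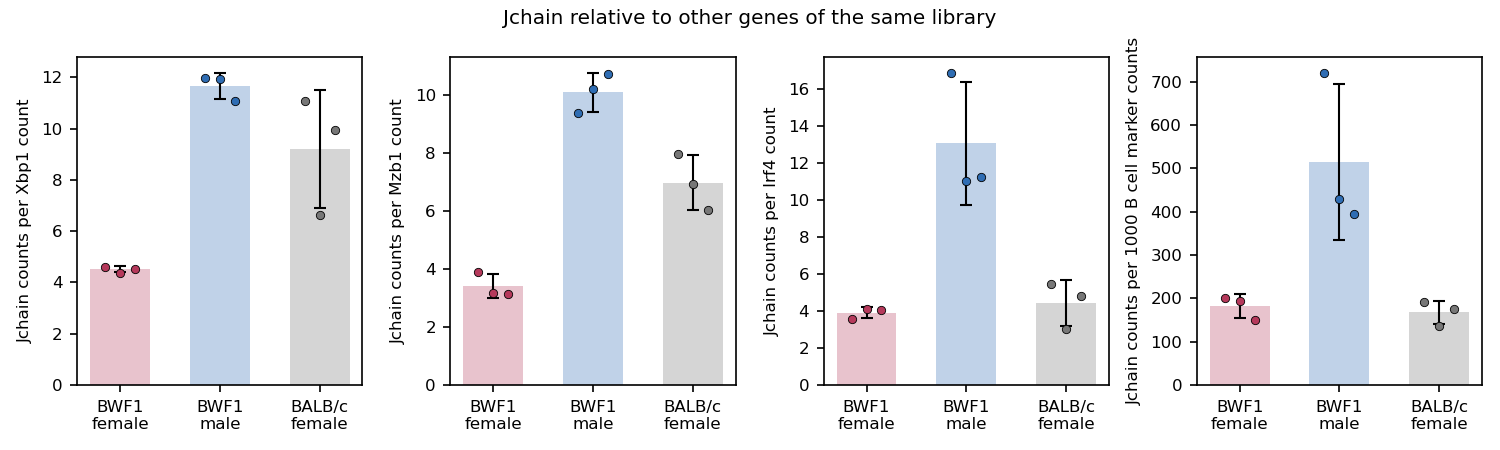
Jchain counts per count of Xbp1, Mzb1 and Irf4 and per 1000 counts of 10 B cell markers (y axes) in each library. Points are libraries, bars are means and error bars SD over 3 libraries. BWF1 females are lowest against Xbp1 and Mzb1, and BWF1 males are highest against Irf4 and the B cell markers.

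Against the B cell markers, Jchain had 202, 194 and 150 counts per 1000 marker counts in BWF1 females, 721, 429 and 394 in BWF1 males and 190, 137 and 175 in BALB/c females. BWF1 females and BALB/c females overlapped, and every BWF1 male lay above both. The markers themselves differed between the groups. Their sum averaged 2144 CPM in BWF1 females and 2443 CPM in BWF1 males, against 2981 CPM in BALB/c females. The exact two-sided permutation p was 0.1 for BWF1 females against BWF1 males (ratio of means 0.353), 0.5 for BWF1 females (1.08) and 0.1 for BWF1 males (3.07), each against BALB/c females. Adjusted over the 12 exact tests these were 0.133, 0.5 and 0.133. The ratio of 1.08 turned to 0.994 without BALB/c female 2.

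On the same scale Xbp1 averaged 40.3 ± 6.34 counts per 1000 marker counts in BWF1 females and 43.9 ± 14.1 in BWF1 males, against 18.5 ± 1.87 in BALB/c females. Mzb1 averaged 53.4 ± 6.93 in BWF1 females and 51.9 ± 21.7 in BWF1 males, against 24.2 ± 4.60 in BALB/c females (SD, n = 3 each). For both genes each BWF1 group lay above all BALB/c females and the BWF1 groups overlapped. Irf4 overlapped in all 3 comparisons, at means of 47.0 in BWF1 females and 39.0 in BWF1 males, against 38.9 in BALB/c females. Derl3 and Sdc1 overlapped between BWF1 females and either other group, and BWF1 males lay above BALB/c females in both.

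The members did not share 1 profile over the 9 libraries. Likeness was measured as the root mean square difference of log2 CPM after each gene's mean was removed. Xbp1 and Mzb1 were the closest pair at 0.226, and Sdc1 and Derl3 followed at 0.344. The member closest to Jchain was Derl3, at 0.504, whereas Prdm1 and Sdc1 were farthest apart at 1.09. For comparison, the SD of Jchain itself over the 9 libraries was 0.800 on that scale.

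Among the other 7712 tested genes, the 3 nearest to Jchain came from other cell types. They were Gzma (0.219), the granzyme A of cytotoxic lymphocytes, C1qc (0.295), a complement chain made by macrophages, and Vcam1 (0.339), an adhesion molecule of red pulp macrophages and stroma. Gzma averaged 22.5 ± 1.87 CPM in BWF1 females and 93.0 ± 13.4 CPM in BWF1 males, against 35.4 ± 10.7 CPM in BALB/c females (SD, n = 3 each). The order of the group means was that of Jchain, with BWF1 females lowest and BWF1 males highest. Since Gzma, C1qc and Vcam1 were picked for likeness to Jchain in these same libraries, this shared order follows from the choice.

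**Figure D4:**
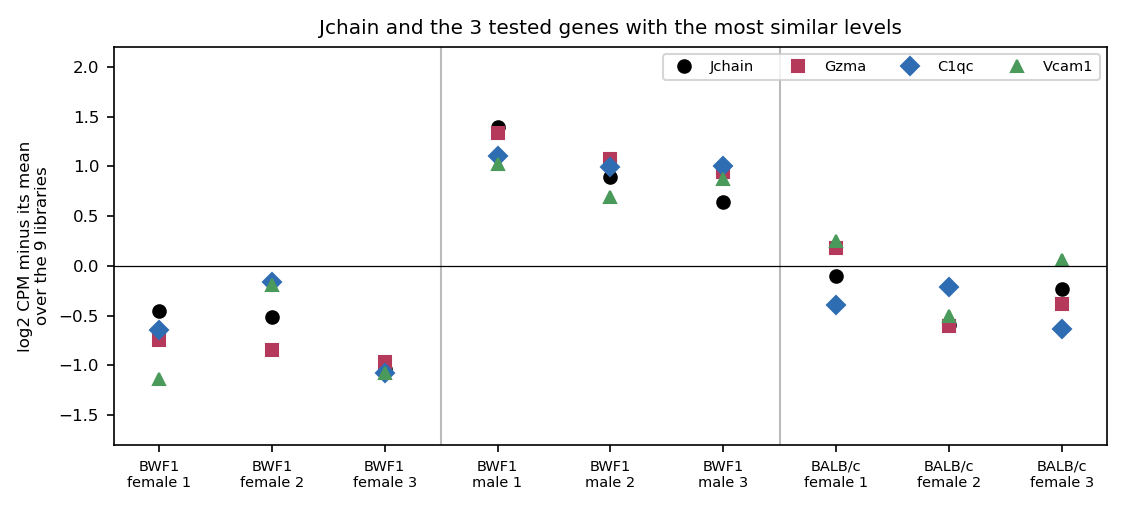
Log2 CPM minus each gene's mean over the 9 libraries (y axis) for Jchain and the 3 genes with the most similar levels, by library (x axis). In all 3 BWF1 males the 4 genes lie above their means, and in all 3 BWF1 females below. The 3 genes were chosen for likeness to Jchain in these libraries, so this shared pattern follows from the choice.

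The 2 nearest to Xbp1 after the ribosomal protein gene Rpl37a (0.110) were Sel1l (0.156) and Hyou1 (0.165), both of the ER, where Sel1l serves the removal of misfolded proteins and Hyou1 is a chaperone. Mzb1 was nearest to Rpl37a (0.162), Plac8 (0.182) and Aacs (0.200). Sdc1 was nearest to Ckap4 (0.374), an ER membrane protein, the macrophage scavenger receptor gene Cd163 (0.376) and Gnptg (0.414). With 9 libraries in 3 groups these neighbours describe levels and show no shared control.

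The other genes of the pathway were taken from lists drawn up by role, with earlier results of these data known. In the list of 33 ER secretory genes linked to XBP1, of which 32 were tested, 0 were called between BWF1 females and males by edgeR, DESeq2 or limma-voom (2 at an unadjusted p under 0.05). Its median log2 difference there was -0.16. Against BALB/c females, 5 were higher in BWF1 females and 0 lower, with a median of 0.31. Against BALB/c females, 7 were higher in BWF1 males and 0 lower, with a median of 0.36. The medians over all tested genes were 0.000638, -0.00236 and -0.00283 in the same order of comparisons.

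Pdia4, a disulfide isomerase of the ER, measured 289, 226 and 189 CPM in BWF1 females and 314, 294 and 265 CPM in BWF1 males, against 121, 92.0 and 114 CPM in BALB/c females. Every BWF1 library of either sex lay above every BALB/c library. The log2 difference was 1.11 in BWF1 females (SE 0.168, edgeR adjusted p 0.000177) and 1.42 in BWF1 males (SE 0.167, adjusted p 3.35e-06). Creld2, a secreted ER stress protein, averaged 39.2 CPM in BWF1 females and 51.2 CPM in BWF1 males, against 18.3 CPM in BALB/c females (log2 differences 1.11 and 1.45, edgeR adjusted p 0.0168 and 0.000926).

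Hyou1 averaged 159 CPM in BWF1 females and 160 CPM in BWF1 males, against 91.0 CPM in BALB/c females. Its log2 difference was 0.80 in either sex, with edgeR adjusted p 0.0130 in females and 0.0121 in males. Hsp90b1, the ER chaperone GRP94, averaged 394 CPM in BWF1 females and 432 CPM in BWF1 males, against 231 CPM in BALB/c females. Its log2 differences were 0.77 in females (edgeR adjusted p 0.0326, groups overlapping) and 0.90 in males (adjusted p 0.0119). The count in BWF1 females dropped to 2 without BWF1 female 1 or 2, to 3 without BALB/c female 1 or 2 and to 1 without BALB/c female 3. The count in BWF1 males was 3 without BWF1 male 1 and 4 without BALB/c female 2 or 3. DESeq2 called 2 of the list in BWF1 females and 5 in BWF1 males, limma-voom 5 and 9, and edgeR with the file name tag as a covariate 2 and 3, all of them higher than in BALB/c females. With library sizes in place of TMM factors 0 of the list were called in all 3 comparisons.

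Of 25 further plasma cell identity genes, 20 were tested. Between BWF1 females and males edgeR, DESeq2 and limma-voom each called 0 of these (8 at an unadjusted p under 0.05), with a median of -0.26. With no filter on low counts edgeR called 2 of the list, both lower in BWF1 females, and it called 2 without BWF1 female 2. The lowest p there was that of Cd93, a receptor for long-term plasma cell survival that endothelium also expresses, at 9.25 CPM in BWF1 females and 22.7 CPM in BWF1 males (log2 difference -1.28, edgeR adjusted p 0.0617). Against BALB/c females at 26.8 CPM it was the single call in BWF1 females (log2 difference -1.50, edgeR adjusted p 0.0137), and 0 of the list were called without BWF1 female 1 or BALB/c female 1, by DESeq2, by limma-voom and with the file name tag as a covariate, against 3 without BWF1 female 2. The list's median in that comparison was 0.01. In BWF1 males the single call was Creb3l2, a transcription factor of the secretory pathway, at 32.2 CPM, against 12.7 CPM in BALB/c females (log2 difference 1.31, edgeR adjusted p 0.00816), with a list median of 0.06. There DESeq2 called 1 of the list and limma-voom 2.

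**Figure D5:**
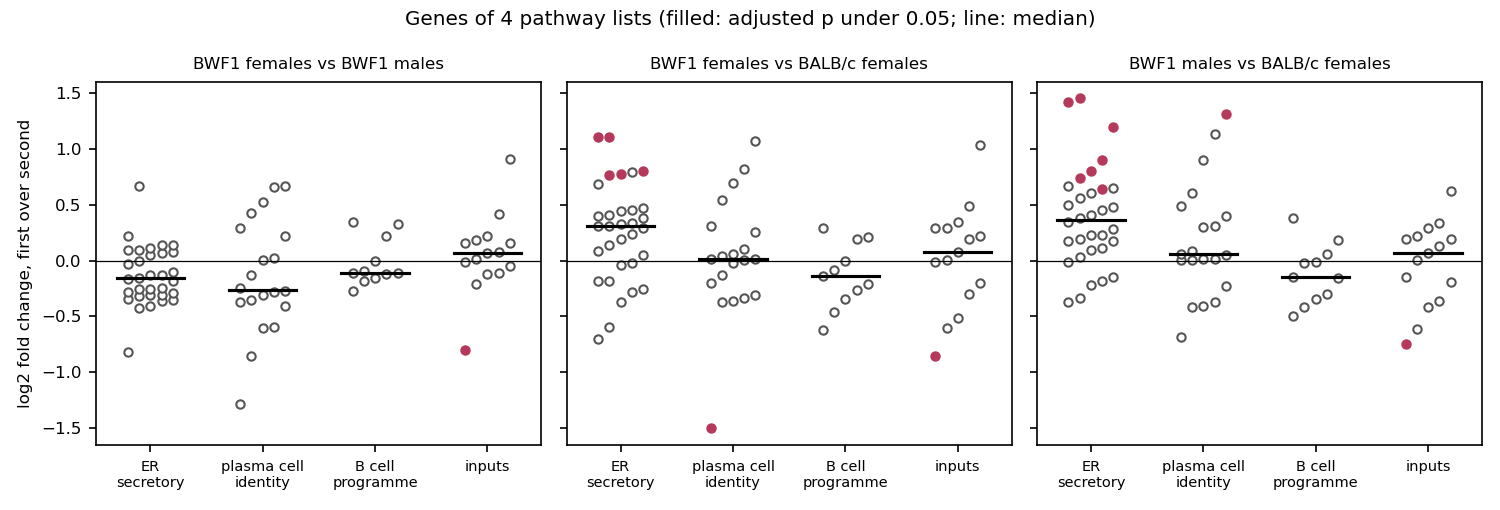
Log2 differences (y axis) of every tested gene of 4 pathway lists in the 3 comparisons. Filled points passed an adjusted p under 0.05 and lines are medians. ER secretory genes were called higher against BALB/c females in BWF1 females (5 of 32) and in BWF1 males (7 of 32), and 0 were called between BWF1 females and males.

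The B cell programme that Blimp-1 is known to repress had 11 of 12 genes tested. At the main settings edgeR, DESeq2 and limma-voom called 0 in any comparison (0, 2 and 3 at an unadjusted p under 0.05). Between BWF1 females and males edgeR called 1 with no filter on low counts and 1 without BWF1 male 1. Between BWF1 females and BALB/c females it called 1 without BWF1 female 1. The list's medians were -0.11 between BWF1 females and males, -0.14 between BWF1 females and BALB/c females and -0.15 between BWF1 males and BALB/c females. The genes with the lowest p were Bach2, a repressor of Prdm1, at 127 CPM in BWF1 females and 99.3 CPM in BWF1 males (edgeR adjusted p 0.347), and Ciita, the activator of MHC class II genes, at 203 CPM in BWF1 females and 278 CPM in BALB/c females (edgeR adjusted p 0.0726). In the third comparison it was Myc, at 110 CPM in BWF1 males, against 84.1 CPM in BALB/c females (edgeR adjusted p 0.266).

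Of 15 genes for the signals that drive plasma cell formation, 1 was called in each comparison. Il6ra, a chain of the interleukin-6 receptor, was lower in BWF1 females at 36.1 CPM, against 62.4 CPM in BWF1 males (log2 difference -0.80, edgeR adjusted p 0.0444). This call ended when any library other than BWF1 female 1 or BWF1 male 1 was left out, with a replicate block, with library sizes in place of TMM factors and with only the 2 groups compared. Cd40, the costimulatory receptor of B cells, was lower than in BALB/c females (61.1 CPM) both in BWF1 females (33.6 CPM, log2 difference -0.85, edgeR adjusted p 0.0177) and in BWF1 males (36.2 CPM, log2 difference -0.75, adjusted p 0.0332). In BWF1 females the list had 0 calls without BWF1 female 1, BALB/c female 2 or BALB/c female 3. In BWF1 males it had 0 without BWF1 male 2, BWF1 male 3, BALB/c female 2 or BALB/c female 3. DESeq2 called 0 of the list in each comparison and limma-voom 1. Library sizes in place of TMM factors ended the Cd40 call in BWF1 females, and the file name tag as a covariate ended it in both BWF1 groups.

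Of 9 genes of the niche that keeps plasma cells alive, only Cxcl12 and Cd86 had enough reads. By edgeR 0 were called in any comparison (1 at an unadjusted p under 0.05 in each comparison with BWF1 males, 0 in the other), DESeq2 called 0 and limma-voom 1, between BWF1 females and males. Cxcl12, the chemokine that retains plasma cells, averaged 28.2 CPM in BWF1 females and 11.7 CPM in BWF1 males, against 21.2 CPM in BALB/c females, and its groups overlapped (edgeR adjusted p 0.117 for BWF1 females against BWF1 males and 0.251 for BWF1 males set against BALB/c females). Cd86 averaged 16.3 CPM in BWF1 females and 23.1 CPM in BALB/c females (edgeR adjusted p 0.492).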

How the data were processed

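RNA was sequenced from 9 spleen samples in 3 groups of 3, grouped by the strain and sex in the labels. Per the labels' protocols, ribosomal RNA was depleted and NEBNext Ultra II libraries were made. Strand handling is not given in the sources used here. The deposited values are raw read counts per gene as the authors made them, with the summary lines that HTSeq writes, which held 97.2% to 98.7% of the alignments and were left out. The submitters' processing notes list STAR 2.6, FastQC 0.10.1 and mm10. Genes were named and measured with GENCODE M21, and promoters came from RefSeq (GRCm38.p6).

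In R 4.3.3, filterByExpr (minimum count 10) kept 7719 genes and set aside 14246. Counts were scaled with TMM, a quasi-likelihood model of all 9 libraries was fitted with edgeR 4.0.16, and p-values were adjusted by Benjamini and Hochberg over all tested genes. Calls needed an adjusted p under 0.05. No share over all genes is given for counts at an unadjusted p under 0.05, a limit that many genes reached. By edgeR a p of 0.0556 (Sdc1) ranked 1348 of all tested genes in the first comparison. A p of 0.0643 (Prdm1) ranked 1499 in the second, and one of 0.0378 (Myc) ranked 1096 in the third. The procedure was tested on simulated data. Alternatives used DESeq2 1.42.0, limma 3.58.1 (voom), other scalings and filters, a replicate block, the file name tag (ORIG in BWF1 female 2, BWF1 male 2 and all BALB/c libraries, RL in the others, of unstated meaning) and each library left out. A count of 3 stood at 0.625 to 6.62 CPM, depending on the library, and intervals cover counting error only where no replicate spread is given. Replicates differed by more than sampling noise (chi-square per degree of freedom 1.41 to 19.5), so none was merged.

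All 8 members are named, with, in each list, up to 3 called genes of lowest p per direction or else the gene of lowest p, and the 3 genes nearest to each called member. Genes of the B cell programme, drive, niche, identity, ER and marker lists were counted whole. Of the marker lists, single genes are named only where a result turns on them. Members and lists were chosen with earlier results of these data known.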

Additional observations from a re-analysis of the deposited data

How the results depend on the processing

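Jchain was called lower in BWF1 females than in BWF1 males in all 21 alternatives (log2 difference -1.82 to -1.37), and higher in BWF1 males than in BALB/c females in 20 of 21. Of 437 member differences recomputed, 402 kept direction and side of the threshold, 16 lost the call, 9 gained it and 10 turned sign, none of those called.

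Between BWF1 females and males, 59 genes were called with library size only, 304 with no filter, 105 by DESeq2, 98 with only the 2 groups and 58 to 198 with 1 library left out (fewest without BWF1 male 3), and 1 member in each. Between BWF1 females and BALB/c females, 130 genes were called with library size only, 169 by DESeq2, 160 with the file name tag and 184 to 370 with 1 library left out (fewest without BALB/c female 1). Members called were 1 with no filter, 1 with only the 2 groups (Mzb1 in each) and 0 to 2 with 1 library left out. Between BWF1 males and BALB/c females, 433 genes were called without Lars2, 510 with no filter, 650 by limma-voom, 153 with the tag, 484 with edgeR's older quasi-likelihood setting (added after seeing the data) and 119 to 393 with 1 library left out (fewest without BALB/c female 2). Members called were 0 with library size only, 2 with the tag (Sdc1 and Mzb1 lost), 3 by DESeq2 (Mzb1 lost) and 2 to 4 with 1 library left out. The causes were not tested. With library size only the median of all genes moved to 0.16, -0.29 and -0.44 in the 3 comparisons.

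Differences that turned sign were those of Mzb1 between BWF1 females and males (0.20 with library size only, 0.072 by limma-voom, 0.000575 with the older setting, and -0.30 to 0.22 with 1 library left out, positive without BWF1 female 3 or BWF1 male 1), Irf4 there (-0.088 to 0.28 with 1 library left out, negative without BWF1 female 1) and Derl3 between BWF1 females and BALB/c females (-0.13 with library size only, -0.017 with the tag, -0.36 to 0.51 with 1 library left out, negative without BWF1 female 1 or BALB/c female 3). Jchain per 1000 B cell marker counts, BWF1 females over BALB/c females, was 0.798 with all gene counts but Lars2 as denominator and 0.994 to 1.18 with 1 library left out. It was 0.316 to 0.441 for BWF1 females over BWF1 males and 2.46 to 3.43 for BWF1 males over BALB/c females.

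Replicate numbers did not pair the samples (correlations of deviations -0.0912 to 0.0589). With a replicate block 118, 255 and 240 genes and 1, 0 and 4 members were called in the 3 comparisons, with Derl3 gained and Mzb1 lost in the third. BWF1 female libraries had the fewest gene counts, although by effective size BWF1 male 1 (509848) lay below BWF1 female 2 (619850). Low counts limit Derl3, Sdc1, Prdm1 and Tnfrsf17 most.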
